A study of Homo sapiens with 33 samples.

Results

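The genes described here were 10 markers of blood lineages other than the red cell lineage, measured in K562 cells, a human leukemia line of erythroid character. They were taken by gene symbol from a table of RNA levels with 58293 gene entries, of which 19757 were protein-coding, and each symbol had 1 entry. Of the 10 genes, 6 mark megakaryocytes and platelets (ITGA2B, ITGB3, GP1BA, GP9, PF4 and PPBP), 3 mark myeloid cells (MPO, SPI1 and CEBPA) and 1 marks stem and progenitor cells (CD34).

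The study examined RNAs bound by EZH2, the catalytic subunit of Polycomb repressive complex 2, and the regulation of the embryonic globin gene in K562 cells. RNA levels came from 1 library, the input of an RNA immunoprecipitation (RIP-seq), made from wild type K562 cells with no antibody and labelled as total RNA. The RIP procedure used nuclear lysate of fixed cells, whose nuclei were sonicated, so these levels can differ from those of whole-cell RNA, which was not tested. Cytoplasmic, nuclear, nuclear polyA+ and nuclear polyA- RNA, with 1 library each, gave read counts over 900 listed EZH2 RIP-seq fragments.

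K562 cells derive from a chronic myeloid leukemia in blast crisis and can be pushed in culture towards red cell or megakaryocyte features. Megakaryocytes and red cells share a progenitor and many transcription factors, whereas platelet glycoproteins and granule chemokines appear as megakaryocytes mature. In the myeloid branch SPI1 and CEBPA direct monocyte and granulocyte formation, and MPO is a granule enzyme of granulocyte precursors. CD34 is the surface protein most used to isolate blood stem and progenitor cells.

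Levels were given as FPKM, fragments scaled to the length of the transcript and to the mapped fragments of the library, each with a lower and an upper bound from the program that made the estimate. These bounds describe the estimate in that library alone, and with no replicate no test between genes or conditions was possible. From the widths of the bounds of 6302 entries the library scale was estimated at 16267651 fragments, at which 1 fragment of PPBP corresponds to an FPKM of 0.103. The erythroid label was checked with 19 erythroid genes: 17 reached an FPKM of 1 and their median was 14.7. HBG2, a fetal globin gene, stood at 218 (206–230) and TFRC, the transferrin receptor, at 171 (160–182). Reads that map to both HBG2 and its near-identical copy HBG1 can be lost in the authors' filter on mapping quality. The HBG2 entry also overlaps HBE1, at 132, and the effect of either on its level was not tested. The bounds of SLC4A1 (0.193, 0–0.711) and EPB42 (0.484, 0–1.12), a membrane transporter and a membrane skeleton protein of mature red cells, reached 0.

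The lineage markers were low next to protein-coding entries, but not next to all entries. ITGA2B and SPI1 had an FPKM of at least 1, which is 2 of 10. This was near the 21.8% of all entries that reached that level, and below the 49.2% of protein-coding entries. The lower bound lay above 0 for 3 of 10 (ITGA2B, SPI1 and GP1BA), against 55.0% of protein-coding entries and 15442 of all 58293 entries. PPBP, ITGB3, CD34 and MPO had values above 0 with a lower bound of 0, and GP9, PF4 and CEBPA were listed at 0. The median of the 10 genes was 0.0721, next to 0.902 for protein-coding entries and 0.068 for all entries, and their FPKM summed to 3.69.

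ITGA2B encodes the alphaIIb chain of the platelet fibrinogen receptor, a marker of the megakaryocyte lineage from its early stages. Its entry (ENSG00000005961.17, GRCh38 chromosome 17, 44372180–44389505, minus strand) had the highest level of the 10 genes, an FPKM of 1.53 (0.173–2.88). It ranked 11109 of 58293 entries, and 54.4% of protein-coding entries were lower. The bounds were wide for such a level: the upper bound lay 88.7% of the estimate above it, compared with a median of 58.0% over the 2552 entries with an FPKM from 1 to 2, and at its lower bound the gene would pass 34.8% of protein-coding entries. ITGA2B has 10 annotated transcripts. Among entries with an FPKM from 1 to 2, the median width was 62.0% with 1 transcript and 62.9% with at least 5. The part of transcript number in the width of ITGA2B itself was not tested.

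ITGB3 encodes the beta3 chain that pairs with alphaIIb. Its level (ENSG00000259207.7, chromosome 17, 47253846–47311816, plus strand) was 0.0927 (0–0.404), and 27.1% of protein-coding entries were lower. The point estimates of both receptor chains thus differed, but their bounds overlapped between 0.173 and 0.404. In the longest annotated ITGB3 transcript, 40.2% of stretches of 50 bases also occurred in transcripts of other genes, and the effect of this on its level was not tested.

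GP1BA and GP9 encode parts of the platelet receptor for von Willebrand factor. GP1BA (ENSG00000185245.7, chromosome 17, 4932297–4935030, plus strand) had an FPKM of 0.433 (0.204–0.663), the level of about 16.8 fragments at the library scale, and 44.1% of protein-coding entries were lower. GP9 (ENSG00000169704.4, chromosome 3, 129060767–129062406, plus strand) was listed at 0, where 3 fragments would have given 0.239. The partners GP1BB and GP5 stood at 0.439 (0.0746–0.804) and 0.0526, and GP1BB lies across SEPT5, which had an FPKM of 39.3. No stretch of 50 bases of GP1BA or GP9 was shared with another gene.

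PF4 and PPBP encode chemokines stored in platelet alpha granules and lie next to each other on chromosome 4. PPBP (ENSG00000163736.3, 73987038–73988197, minus strand) had an FPKM of 0.103 (0–0.31), which matched 1 fragment. PF4 (ENSG00000163737.3, 73981077–73982124, minus strand) was listed at 0, where 3 fragments would have given 0.266, and its close copy PF4V1 was also listed at 0. Of the 50-base stretches of PF4, 63.7% occurred in another gene of the newer annotation used here, as did 32.2% of those of PPBP. These shared stretches were in a later-annotated gene at the same locus and, for 10.5% of the PF4 stretches, in PF4V1.

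SPI1 encodes the ETS-family factor PU.1, needed for monocyte, granulocyte and B cell development. Its level (ENSG00000066336.11, chromosome 11, 47354860–47378576, minus strand) was 1.46 (0.862–2.06), it ranked 11255 of all entries, and 54.0% of protein-coding entries were lower. Its upper bound lay 41.0% of the estimate above it, a narrower range than that of ITGA2B and than the median of entries of that level. SPI1 thus had the better-determined estimate of the 2 highest genes, whose bounds overlapped.

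CEBPA encodes a leucine zipper factor of granulocyte commitment. It (ENSG00000245848.2, chromosome 19, 33299934–33302564, minus strand) was listed at 0, and because its transcript is longer than those of GP9 and PF4, 3 fragments would have given 0.0733. Its family members differed: CEBPG was at 8.57 (7.78–9.36), CEBPB at 2.85 (2.22–3.48), CEBPD at 0.292 (0.104–0.481) and CEBPE, the factor of late granulocyte maturation, was listed at 0. MPO, the myeloperoxidase of granulocyte precursors (ENSG00000005381.7, chromosome 17, 58269856–58280935, minus strand), had an FPKM of 0.0194 with an upper bound of 0.689, at which 47.9% of protein-coding entries would be lower, against 14.5% at the estimate.

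CD34 (ENSG00000174059.16, chromosome 1, 207880972–207911402, minus strand) had an FPKM of 0.0514 (0–0.206), and 20.5% of protein-coding entries were lower. By estimate the order was ITGA2B, SPI1, GP1BA, PPBP, ITGB3, CD34 and MPO, followed by the 3 genes at 0. Among the 21 pairs of the 7 genes above 0, the bounds of 5 pairs did not overlap, and all 5 set SPI1 above another gene (GP1BA, PPBP, ITGB3, CD34 or MPO). SPI1 and GP1BA were therefore the only neighbours in the order above 0 with separate bounds. The wide bounds of ITGA2B overlapped those of every other gene above 0.

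Promoter sequences show which short motifs of blood transcription factors lie near the start of these genes. The RefSeq-derived promoter table (GRCh38.p14, 250 bases before to 50 after the start) held 5 of the 10 genes: ITGA2B, PPBP, GP9, CEBPA and CD34. Both strands were searched for GATA motifs (AGATAA or AGATAG or TGATAA or TGATAG), the ETS motif AGGAAG, the CCAAT box CCAAT and the TATA box TATAAA. Each is shown in capitals within 28 bases, on the strand of the gene, so that a match on the other strand appears as its reverse complement. The set shows the GATA matches of ITGA2B, at an FPKM of 1.53, and of PPBP, at 1 fragment, then matches of GP9 and CEBPA, both listed at 0.
ITGA2B GATA, chr17:44389735-44389762, minus strand: agagacatcatTGATAGgcagaaccaat
PPBP GATA, chr4:73988391-73988418, minus strand: aggtgtaaggaAGATAAgtattgagaaa
PPBP TATA, chr4:73988205-73988232, minus strand: gagaaagagcaTATAAAtgacatcttca
GP9 ETS, chr3:129060724-129060751, plus strand: tattttcatcaCTTCCTtccgcccgctc
CEBPA TATA, chr19:33302548-33302575, minus strand: ggcctgccgggTATAAAagctgggccgg

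The ITGA2B match began 102 bases before the RefSeq start and the PPBP GATA match 217 bases before it, with an ETS match overlapping the latter by 2 bases. GATA motifs were in 2 of the 5 promoters and in 25.0% of the 35116 promoters of the table. ETS motifs were in 3 (GP9, ITGA2B and PPBP) against 33.6% and the CCAAT box in 1 (ITGA2B) against 34.6%. The TATA box letters were in 3 (CEBPA, GP9 and PPBP) against 11.5%. They began 30 and 31 bases before the start in CEBPA and PPBP, but 161 bases before it in GP9. The CD34 window held none of these letters. GATA and ETS letters were in the windows of both ITGA2B and PPBP, whose FPKM bounds overlapped. A match of letters says nothing of binding.

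Genes that act in the same lineages were read from lists of genes of known function. Of 14 transcription factors of megakaryocytes, most of which red cells also use, 12 (85.7%) had an FPKM of at least 1, next to 49.2% of protein-coding entries, and the median was 11.6. NFE2, which drives platelet release, was highest at 29.7 (27.4–32.0), followed by LMO2 at 20.4 (18.1–22.6), LDB1 at 19.6 (17.7–21.4) and GATA2 at 16.1 (14.5–17.7). RUNX1, a factor of both stem cells and megakaryocytes, was at 12.8 (10.9–14.6). The 2 below 1 were the ETS factors FLI1, at 0.169 (0–0.594), and ERG, at 0.206 (0–0.621).

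The products of mature megakaryocytes were more mixed. Among 18 surface proteins, 6 (33.3%) reached 1, between the 21.8% of all entries and the 49.2% of protein-coding entries. The median was 0.344. ITGB1, an integrin chain of many cell types, was at 51.7 (45.4–57.9), the ADP receptor P2RY1 at 5.4 (4.95–5.85), the collagen receptor GP6 at 4.83 (3.9–5.75) and the thrombin receptor F2R at 2.91 (2.03–3.78). GP6 is overlapped by the entry CTC-550B14.7 at 6.08. TREML1, a receptor of platelet granules, was listed at 0, and ITGA2, a collagen-binding integrin chain, and SELP, the P-selectin gene, were at 0.054 and 0.0483 with a lower bound of 0.

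Among 18 granule and cytoskeleton genes, 10 reached 1 (55.6%, near the 49.2% of protein-coding entries) and the median was 3.2. The highest were FLNA at 37.1 (32.7–41.4), SRGN at 22.6 (20.1–25.1), TLN1 at 21.4 and MYH9 at 16.7. FLNA, TLN1 and MYH9 encode cytoskeleton proteins found in most cell types, and SRGN a proteoglycan of blood cell granules. VWF and THBS1, secreted proteins of alpha granules, were at 0.0137 (0–0.587) and 0.306 (0–1.09), and F13A1, a clotting factor subunit, at 0.422, all with a lower bound of 0.

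In the myeloid branch, 5 of 11 transcription factors reached 1 (45.5%, also near that of protein-coding entries) with a median of 0.292. They were MYB at 57.4 (53.2–61.7), EGR1 at 14.2 (13.1–15.2), RUNX1 and the CEBPG and CEBPB genes given above. RUNX1 was also in the megakaryocyte factor list, and whether the others are particular to myeloid cells was not tested. IRF8, a factor of monocytes, was at 0.0949 (0–0.769). Of 15 granulocyte genes 1 (6.67%) reached 1, FUT4 at 1.39 (1.14–1.63), which is overlapped by PIWIL4 at 3.95, and 8 were listed at 0, among them the granule proteases ELANE, PRTN3 and CTSG and the peptide gene CAMP. The median of the granulocyte list was 0, and its share at 1 lay below the 21.8% of all entries and the 49.2% of protein-coding entries.

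Of 14 monocyte genes, 3 (21.4%) reached 1, near the 21.8% of all entries and below the 49.2% of protein-coding entries, with a median of 0.18. They were CD68, a lysosomal protein, at 8.83 (6.88–10.8), LYZ, the lysozyme gene, at 5.76 (4.16–7.37), and CD33, a sialic acid receptor, at 3.77 (2.69–4.85). CD14 and CSF2RA, both monocyte surface receptors, were listed at 0, but CSF2RA has identical copies on the sex chromosomes, and reads that map to both can be lost in the mapping quality filter. Mast cell, basophil and eosinophil genes had 1 of 10 (10.0%) at 1 or above, below both shares. This was PRG2 at 1.18 (0.551–1.8), which is overlapped by RP11-872D17.8 at 11.6. TPSAB1, TPSB2, FCER1A and CLC were listed at 0. TPSAB1 and TPSB2 are near-identical copies whose level is uncertain for the same reason as that of CSF2RA.

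Among 20 stem and progenitor genes, 5 (25.0%) reached 1, near the 21.8% of all entries and below the 49.2% of protein-coding entries, with a median of 0.175. These were MSI2, an RNA-binding protein, at 27.8 (23.5–32.1), GATA2, PTPRC, the leukocyte phosphatase, at 14.5 (12.4–16.5), MECOM, a zinc finger factor, at 9.41 (7.38–11.4), and the homeobox gene MEIS1 at 3.8 (2.23–5.37). GATA2 and MEIS1 were also in the megakaryocyte factor list. The receptor genes KIT, at 0.301 (0–0.783), and FLT3, listed at 0, were low as CD34 was, and BAALC, SPINK2 and CRHBP were also listed at 0. Lymphoid genes, added as a further cell type, had 1 of 16 (6.25%) at 1 or above, below both shares. This was CD3D at 6.29 (3.85–8.73), and CD79A, CD79B and GNLY were listed at 0.

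As a check of the library, 15 housekeeping genes had FPKM from 10.6 to 317 with a median of 49.7, and all were above 1. Genes close to the markers on the chromosome were then compared. Across the 10 markers, 51 protein-coding entries lay within 100 kb, counting neighbours shared by PF4 and PPBP for each, and 27 (52.9%) reached an FPKM of 1, next to 49.2% of all protein-coding entries.

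SPI1 lay 40.2 kb from PSMC3, a proteasome subunit, at 67.0 (60.9–73.1), and GP1BA 10.6 kb from PFN1, an actin-binding protein, at 53.8 (48.6–59.0). CD34 had 1 coding neighbour, CD46, a complement regulator, at 33.9 (31.2–36.5) and 85.5 kb away. MPO was 64.2 kb from SUPT4H1, a transcription elongation factor, at 28.9 (24.7–33.1). The bounds of neighbour and marker were separate in these 4 pairs, as in the pairs within 100 kb that follow. Each neighbour was picked as the highest within 100 kb, so this follows largely from the choice.

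ITGB3 lay 30.2 kb from MYL4, a myosin light chain, at 28.1 (24.4–31.8), and ITGA2B 47.3 kb from SLC25A39, a mitochondrial carrier, at 12.9 (11.1–14.7). GP9 was 65.0 kb from ISY1, a splicing factor, at 8.68 (7.12–10.2), and CEBPA 70.8 kb from its family member CEBPG. The highest coding neighbour of PF4 and PPBP, the chemokine gene CXCL3, was at 1.71 (0.875–2.54). These values depend on the window. Within 50 kb the highest entry of any type was at 0.279 for GP9, 0.179 for CEBPA, 0.556 for CD34, 0.742 for PF4 and 4.57 for MPO. Those of CEBPA, CD34, PF4 and MPO were not protein-coding, unlike the highest entries within 100 kb. Within 250 kb the highest entry of any type was at 11.2 for PF4 and PPBP, 63.6 for GP9 and 25.3 for ITGA2B. Entries overlapping a marker were found for ITGB3, where THCAT158 on the other strand was highest at 0.171, and for CEBPA, with 2 antisense entries listed at 0. The protein-coding entry RP11-290H9.2 (47253897–47344292) overlaps ITGB3 on the same strand and was at 2.95e-12 (0–0.045). How reads were divided between it and ITGB3 was not tested.

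The second readout was reads over the 900 EZH2 RIP-seq fragments in the count tables, and any fragment of the study outside these 900 was not analysed here. None of the 900 had at least 50% of its length within the span of a marker gene. Of 132 non-erythroid list genes, 3 held such fragments, 11 in all: RUNX1 with 5, TBXAS1, the thromboxane synthase of platelets, with 5, and MSI2 with 1. This was 2.27% of the list genes of any level, next to 1.22% of protein-coding entries of any level. Among protein-coding entries with an FPKM of at least 1 the share was 2.34%. The list genes were not split by level, and no test was run. At such shares 0 of 10 markers is not a result about the markers. In 8 of these 11 no base lay in an annotated exon of the host gene. That share was not computed over all 900 fragments, so it describes these 11 only. All 11 had more nuclear than cytoplasmic reads, as did 96.2% of the listed fragments. Counts were given over listed fragments, so reads of the 10 markers in the 4 RNA fractions were not analysed here.

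The 5 RUNX1 fragments (chromosome 21, from 34811334 to 34877220) had 43, 77, 55, 187 and 73 nuclear reads in order of position, and 0, 4, 5, 4 and 1 cytoplasmic reads. Summed, nuclear reads (435) outnumbered cytoplasmic ones (14) by a ratio of 31.1 (18.3–57.3, Clopper-Pearson 95% interval), compared with 13.3 for the sums over all 900 fragments. PolyA- reads (443) exceeded polyA+ reads (199) with a ratio of 2.23 (1.88–2.64), an interval just above the 1.83 over all fragments. For the 5 TBXAS1 fragments the sums were 230 and 26, a nuclear to cytoplasmic ratio of 8.85 (5.88–13.8), whose interval includes 13.3. These ratios compare libraries as deposited, with no correction for library depth, and the intervals cover counting error only.

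The TBXAS1 fragments summed to 435 polyA+ and 182 polyA- reads. Their polyA- to polyA+ ratio was 0.418 (0.35–0.499), an interval below the 1.83 over all fragments. The first fragment (chromosome 7, 139903418–139906927) had 283 polyA+ and 48 polyA- reads, a polyA- to polyA+ ratio of 0.17 (0.122–0.231), and its second (139926687–139929161) had 59 and 26, a ratio of 0.441 (0.267–0.71). The other 3 had 17 and 24, 10 and 10, and 66 and 74 reads. These 2 of 11 fragments had more polyA+ than polyA- reads, as did 12.1% of the listed fragments. The first fragment overlapped an exon of an annotated TBXAS1 transcript over 2.79% of its length, and TBXAS1 itself had an FPKM of 7.15 (5.3–9.0).

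The MSI2 fragment (chromosome 17, 57531907–57532841) had 14 nuclear and 0 cytoplasmic reads, and 15 polyA- against 3 polyA+ reads.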

How the data were processed

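RNA levels were taken from the deposited FPKM table of the RIP-seq input library. According to the methods, the authors trimmed reads with Trim Galore, aligned them with STAR to GRCh38 with GENCODE 26, removed PCR duplicates with SAMtools rmdup and alignments with mapping quality below 20, and made the FPKM values with cuffdiff. The deposited counts over 900 EZH2 RIP-seq fragments in 4 RNA fractions were made by the authors with featureCounts. The RNA-seq libraries were prepared from ribosomal RNA-depleted RNA with a stranded kit, and the strand setting used for counting was not given in the sources used here. Versions of these programs were likewise not given.

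Entries were matched by symbol, with the highest entry kept where a symbol had several. Locus starts were converted to 1-based positions. Gene types, exons and transcripts came from GENCODE 44, which shares 98.7% of the entries' identifiers. The scale of 16267651 fragments was recovered from the deposited bounds of single-transcript entries and reproduced their FPKM with a median difference of 1.4%. Fragment numbers at that scale set the limit of a value of 0 (3 fragments). Levels were compared by their bounds, and no test between genes or conditions was run, as there was 1 library per sample type. Ratios of reads carry Clopper-Pearson intervals. The genes named were the 10 markers, up to 4 highest and up to 4 at 0 or with a lower bound of 0 per list, list genes with a fragment, overlapping entries, the highest neighbour of each marker and paralogs. GP1BB, GP5, MEIS1 and the entries overlapping GP1BB, GP6, FUT4 and PRG2 were named after their values were seen. The markers and lists were chosen with earlier results of these data known, and the housekeeping list was added after the data were seen. The calculations were tested on simulated data. Python 3.11.15, numpy 2.4.6, pandas 2.3.3, scipy 1.17.1 and matplotlib 3.10.9 were used. Alternatives were other FPKM thresholds and pseudocounts, the bounds in place of the estimates, other backgrounds and windows. A further promoter motif and a further list gene are not reported here.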

Additional observations from a re-analysis of the deposited data

How the results depend on the processing

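The number of marker genes at or above an FPKM of 1 was 2, and it was 4 at a threshold of 0.1, 0 at 2, 0 at 5 and 0 where the lower bound had to reach 1. At a threshold of 0.1 the counts were 13 for megakaryocyte surface genes (6 at 1), 5 for granulocyte genes (1 at 1), 8 for monocyte genes (3 at 1), 12 for stem and progenitor genes (5 at 1), 3 for mast cell, basophil and eosinophil genes (1 at 1) and 8 for lymphoid genes (1 at 1). At a threshold of 5 they were 2 for megakaryocyte surface genes, 0 for granulocyte genes and 0 for mast cell, basophil and eosinophil genes, and the last was also 0 with the lower bound at 1. These changes follow from the thresholds themselves. For the other thresholds, bounds and scales in this section, no share over all entries is given. Those counts therefore cannot be set against other genes. Of 107 alternative values, 67 stayed within the bounds of the estimate or within 1.5 times the count, and 40 moved further. The count of 3 markers with a lower bound above 0 was 2 with bounds 1.5 times wider, and the counts of fragments in markers (0) and in list genes (11) were equal under any overlap. No paired analysis was possible because each group compared had 1 library and no test was run. Levels of about 0.1 rest on about 1 fragment for a gene the length of PPBP, and on more fragments for longer genes. The bounds of PPBP, ITGB3, CD34 and MPO all overlapped, so their levels could not be told apart in this library. In alternatives added after seeing the data, rescaling to TPM put 3 markers at or above 1, GP1BA being the further gene, and fitting the scale on entries of 1 fragment alone gave 16636648 fragments.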
